A study of Mus musculus with 6 samples.

Results

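The genes described here are 49 genes of redox defence and FoxO signalling: superoxide dismutases and catalase, glutathione peroxidases, peroxiredoxins, the thioredoxin and glutaredoxin systems, enzymes that make or use glutathione, the NRF2 axis, sestrins with Ucp2, and 3 FoxO factors. They were listed by known role, with earlier results of these data known, and all 49 were found among the 27179 genes of the deposited table. Levels are in CPM, reads scaled to the size of the library, and genes that reached 1 CPM in 3 or more of 6 libraries were tested. All 49 passed, among 13018 genes that did.

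The study compared LT-HSC (long-term haematopoietic stem cells, which can rebuild all blood lineages) with and without Prdm16, a zinc-finger transcriptional regulator. Both groups were C57BL/6 adults of 8 to 12 weeks that carried 2 conditional Prdm16 alleles (Prdm16-Mx1-Cko/Cko) and were injected 5 times with pIpC, an RNA mimic of virus that induces interferon and through it the Mx1 promoter. Controls lacked the Mx1-Cre transgene (+/+) and knockouts carried it (Tg/+), so the controls also had the conditional alleles and pIpC, but no Cre. Cells were sorted 5 weeks after pIpC, with the gate Lin- Sca-1+ c-Kit+ CD48- CD150+, from marrow pooled over 5 mice per genotype. The 3 libraries of a group are technical portions of 1 pooled sort, so every p-value here measures the spread between portions and not between animals. Mx1-Cre acts in all interferon-responsive cells of the mouse, not in stem cells alone.

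Library totals ran from 36747729 to 43743795 reads. Prdm16 itself averaged 40.8 ± 9.40 CPM over control libraries and 10.8 ± 3.37 CPM over knockout libraries (SD, n = 3 each), with reads left in each of the latter. All 12 listed LT-HSC markers were present in both groups, with summed levels of 3445 to 3642 CPM in control and 3327 to 3639.5 CPM in knockout. Markers of other cells differed between the groups. Of all tested genes 0.407% were called higher in knockout. Of 14 neutrophil markers 12 were tested and 10 were called higher, and their summed level went from 309 to 325 CPM in control to 1122 to 1332 CPM in knockout. Most of the control sum was Prtn3, which averaged 209 CPM in control and 211 CPM in knockout. Eosinophil, basophil and mast cell markers went from 14.1 to 18.6 CPM to 588 to 681 CPM, with 6 of 9 tested genes called higher and 5 of the 10 listed at 0 reads in every control library. B and plasma cell markers went from 236 to 282 CPM to 461 to 487 CPM (1 of 8 tested genes called higher), and megakaryocyte and platelet markers from 907 to 989 CPM to 1298 to 1444 CPM (2 of 7). Erythroid markers were at 112 to 117 CPM in control and 139 to 175 CPM in knockout (0 of 9 called). Of these 9, 6 had every knockout library above every control library (66.7% against 8.52% of all tested genes), and 1 had a fitted value below 0. T and NK cell markers overlapped, with Cd3e and Cd8a at 0 in all libraries. Redox genes are used by all of these cells. The part of such cells in the values below was not tested, and in bulk RNA fewer cells of a type and less RNA per cell cannot be told apart.

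**Figure D1:**
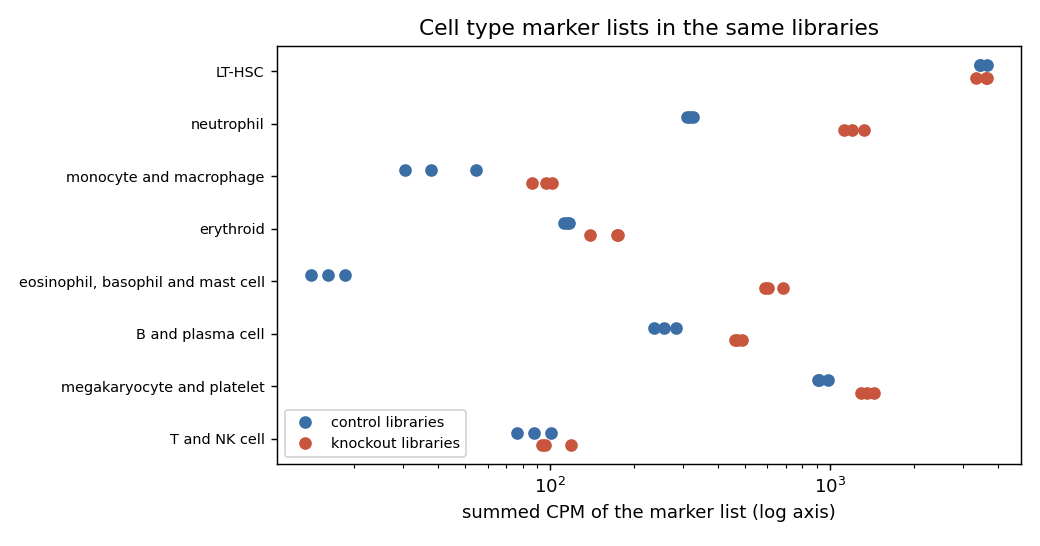
Summed CPM of 8 marker lists (rows) in each library, on a log axis, with control libraries in blue and knockout libraries in red. The LT-HSC list overlaps between groups (3445 to 3642 against 3327 to 3639.5 CPM), while the neutrophil list is at 309 to 325 CPM in control and 1122 to 1332 CPM in knockout.

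Superoxide dismutases turn superoxide into hydrogen peroxide, and catalase, glutathione peroxidases and peroxiredoxins remove the peroxide. Glutathione and thioredoxin are the carriers that recharge glutathione peroxidases and peroxiredoxins, both carriers being reduced again with NADPH. NRF2 (gene Nfe2l2) switches on many of the genes when its inhibitor KEAP1 is inactivated by oxidants, and FoxO factors switch on others when growth factor signalling is low. Quiescent stem cells of mouse marrow are known for low levels of reactive oxygen species, and loss of FoxO factors or of ATM is known to raise these levels and to exhaust the cells.

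One of the 49 genes passed the test. Txnip, which encodes an arrestin-family protein that binds and inhibits thioredoxin and lowers glucose uptake, fell by 31.3% in knockout, and none rose. Called genes (limma, Benjamini-Hochberg adjusted p below 0.05 over all tested genes) were 0.699% of all genes tested and 2.04% of the 49, and those called lower 0.292% of all genes tested. At an unadjusted p under 0.05 there were 7 of the 49, 6 lower and 1 higher, which is 14.3% against 10.3% of all tested genes (4.72% lower and 5.58% higher). In 8 of the 49 the control and knockout libraries did not overlap, 7 with every knockout library lower and 1 with every knockout library higher. That share, 16.3%, is near the background of 16.5%. Knockout-lower genes without overlap were 14.3% of the 49 against 8.01% of all tested genes, and knockout-higher ones 2.04% against 8.52%. Fitted values were below 0 for 35 of the 49 (71.4% against 49.45% of all tested genes) and above 0 for 14. The median log2 fold change was -0.05 against 0.003 over all tested genes. Signs were not all stable, and 10 of the 49 changed sign without control replicate 2. In 23 of the 49 the fitted difference was under 0.1 on the log2 scale in either direction.

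**Figure D2:**
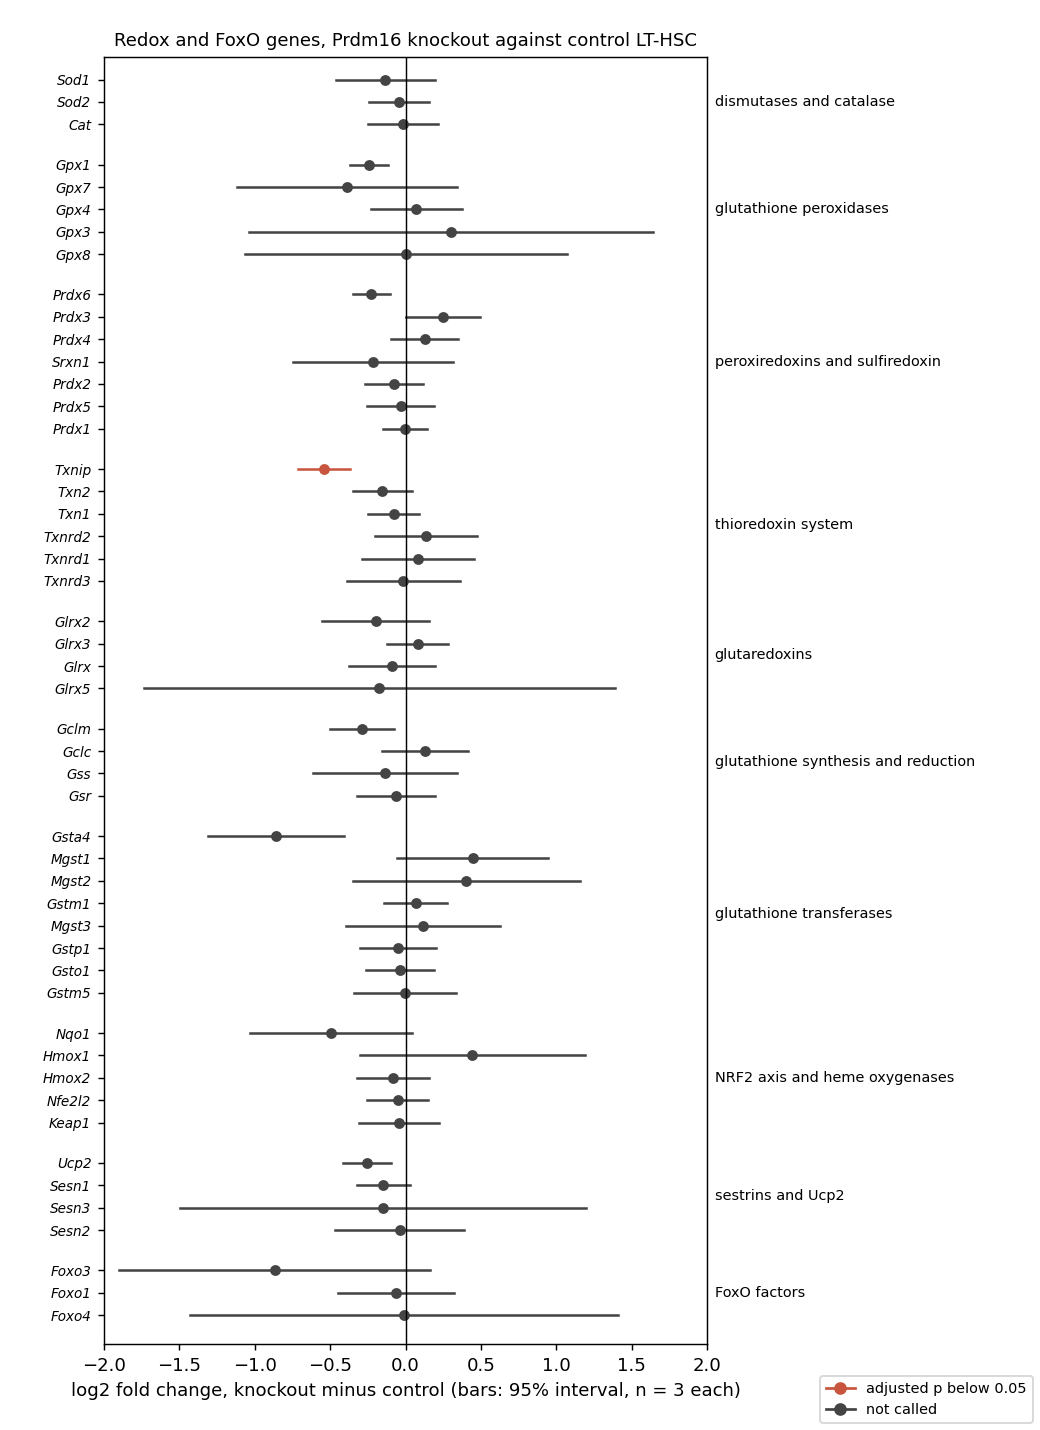
Fitted log2 fold change of each of the 49 genes, knockout minus control, with its 95% interval (limma, n = 3 libraries per group, not adjusted for multiple genes), grouped by role. Txnip, in red, is the 1 called gene, at -0.54, and the widest intervals belong to genes of low level such as Glrx5, Foxo4 and Sesn3.

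The precision was uneven. The 95% interval of the fold change lay within 1.5-fold in either direction for 33 of the 49 and within 2-fold for 38. The 11 outside 2-fold were Gpx3, Gpx7, Gpx8, Glrx5, Gsta4, Mgst2, Nqo1, Hmox1, Sesn3, Foxo3 and Foxo4, of which 8 averaged under 10 CPM in control. An interval can fall outside through its width or through the size of the difference, the latter for Gsta4 (SE 0.20, -1.31 to -0.41 on the log2 scale). In simulated reads at this size the test found 11.1% of 1.5-fold, 54.4% of 2-fold and 71.0% of 4-fold changes, so a gene that is not called here is not shown to be equal. The changed genes were drawn at random from all tested genes. Of the 49, 34 were at or above the median level of tested genes, so the rates for the 49 may differ.

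Levels per exon length put the members in order of abundance in control LT-HSC, as mean CPM per kilobase of annotated exon. Gpx1, the cytosolic glutathione peroxidase, was highest at 1647. Txn1, cytosolic thioredoxin, followed at 501, Txnip at 366, Prdx1 at 220.0, Prdx6 at 171 and Prdx2 at 141, the last 3 being peroxiredoxins. Catalase stood at 74.7, Sod1 at 21.2 and Sod2 at 15.2. At the low end were Foxo3 (1.11), Foxo4 (0.694), Glrx5 (0.446) and Sesn3 (0.389). The lengths are unions of all annotated exons, which lowers a gene with long exons that few of its transcripts use.

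**Figure D3:**
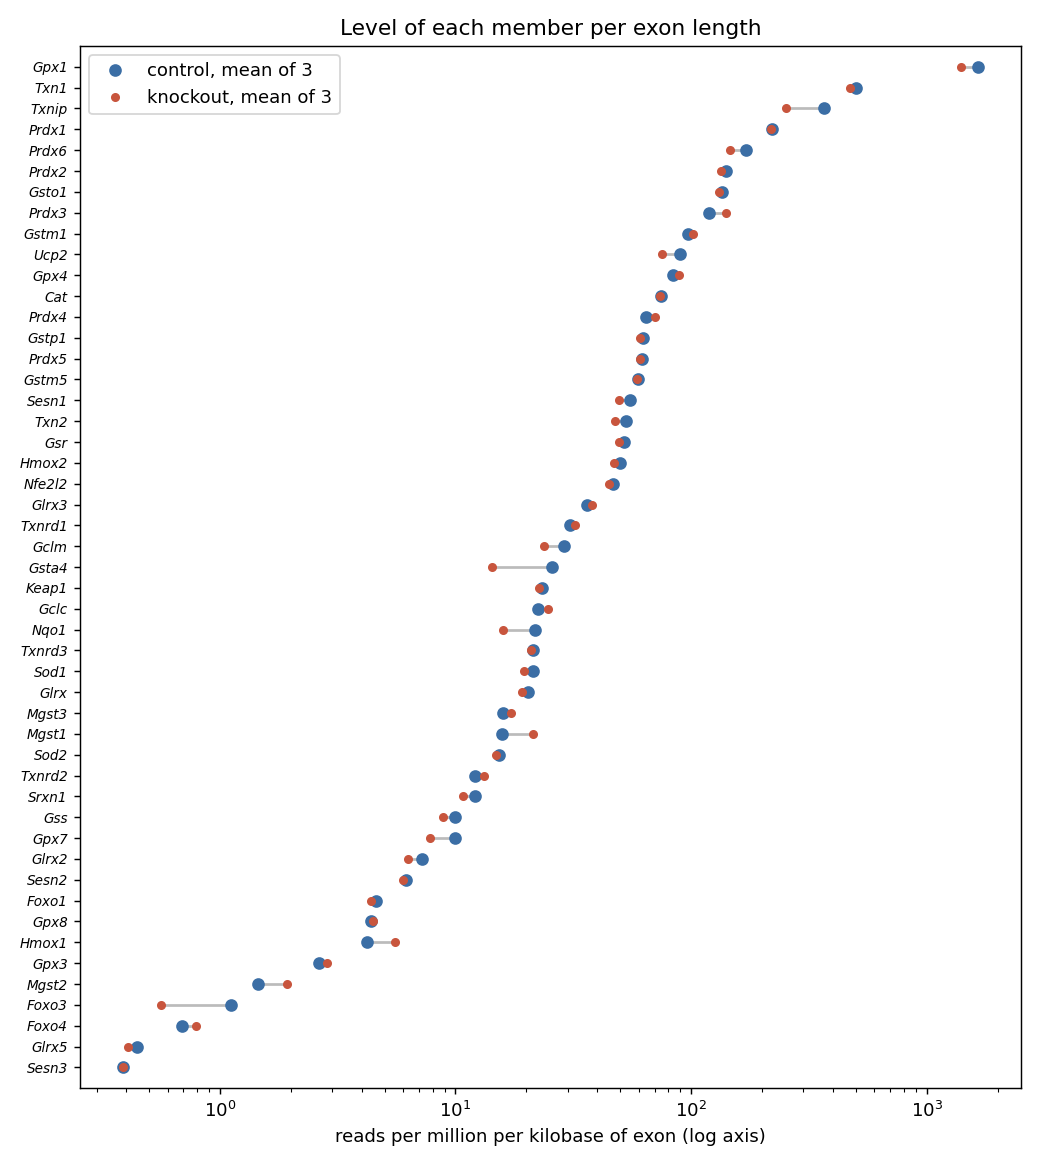
Mean level of each of the 49 genes per kilobase of exon, on a log axis, in control (blue) and knockout (red), ordered by control. Gpx1 leads at 1647 in control and 1394 in knockout, and Sesn3 is lowest at 0.389 in each.

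The thioredoxin system held the called gene. Txnip (gene ID 56338, chromosome 3, 96557957 to 96561857, mm10) was at 1092, 1139 and 1200.1 CPM in control replicates 1 to 3 and at 834, 690.3 and 839 CPM in knockout replicates 1 to 3. Every knockout library was below every control library, and knockout replicate 2 was the lowest. Group means were 1144 ± 54.4 and 788 ± 84.6 CPM (SD over 3 libraries), and the log2 fold change was -0.54 (SE 0.08, 95% interval -0.72 to -0.37, limma adjusted p = 0.01). The call was lost without control replicate 3 (adjusted p = 0.0514) and without the mean-variance trend (0.282), while the fold change stayed between -0.59 and -0.45 over all alternatives. Gm15441, a gene on the opposite strand whose exons overlap those of Txnip, had 137 to 206 reads in control and 132 to 179 in knockout, or 3.14 to 5.10 and 3.42 to 4.10 CPM. Since the strand setting is not given, reads shared by these genes cannot be told apart. In the GENCODE M21 annotation 11 of the 49 genes have exons that overlap those of a gene on the opposite strand. The others are Prdx2, Prdx5, Txnrd2, Gclm, Gss, Gstm5, Hmox2, Keap1, Ucp2 and Foxo1. The deposited values are per NCBI gene ID, and by RefSeq coordinates some of these pairs do not overlap. Those are Prdx2 with Junb and Rnaseh2a, Ucp2 with Dnajb13, and Gss with Acss2.

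The promoter of Txnip is shown because Txnip is the gene that passed and its window holds the letters of a FoxO motif. The sequence runs from 250 bases before to 50 bases after the RefSeq start (GRCm38.p6, plus strand, chr3:96557707-96558006), with those letters in capitals.
Txnip promoter: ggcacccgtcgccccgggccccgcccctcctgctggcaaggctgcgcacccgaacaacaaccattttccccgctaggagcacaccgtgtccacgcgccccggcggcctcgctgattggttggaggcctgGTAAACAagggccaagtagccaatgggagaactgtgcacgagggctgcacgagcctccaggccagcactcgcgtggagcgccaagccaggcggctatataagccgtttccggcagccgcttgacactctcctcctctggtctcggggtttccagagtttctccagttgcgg
The motif searched was TGTTTAC on either strand, here read on the minus strand at position -121. RefSeq promoters matched 43 of the 49 genes, some with more than 1 start, 57 windows in all. The FoxO letters were in 3 of these (5.26%), of Txnip, Glrx2 and Sesn1, and in 3.65% of all 32851 promoter windows. An E-box, CACGTG, was in 2 (3.51%), of Glrx2 and Prdx4, against 7.15% of all windows. Only these exact letters were searched, so variant forms of either motif, in Txnip or elsewhere, were not counted. A match describes the letters and does not show binding.

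Other members of the thioredoxin system did not pass. Txn2, mitochondrial thioredoxin, was at 237, 205 and 229 CPM in control and 193, 203 and 206 CPM in knockout, with the groups overlapping by 1 library and a log2 fold change of -0.15 (SE 0.09). Txn1 was at 559, 532 and 489.6 CPM in control and 477, 543 and 478 CPM in knockout, again overlapping, with a log2 fold change of -0.08 (SE 0.08). The 3 thioredoxin reductases, Txnrd1 of the cytosol, Txnrd2 of mitochondria and Txnrd3, had log2 fold changes from -0.01 to 0.13. Txnrd1 varied most among control libraries, with 158 CPM in replicate 1 against 244 and 252 CPM. Thus the inhibitor of thioredoxin was the member called, and the intervals of thioredoxin and of its reductases included 0.

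**Figure D4:**
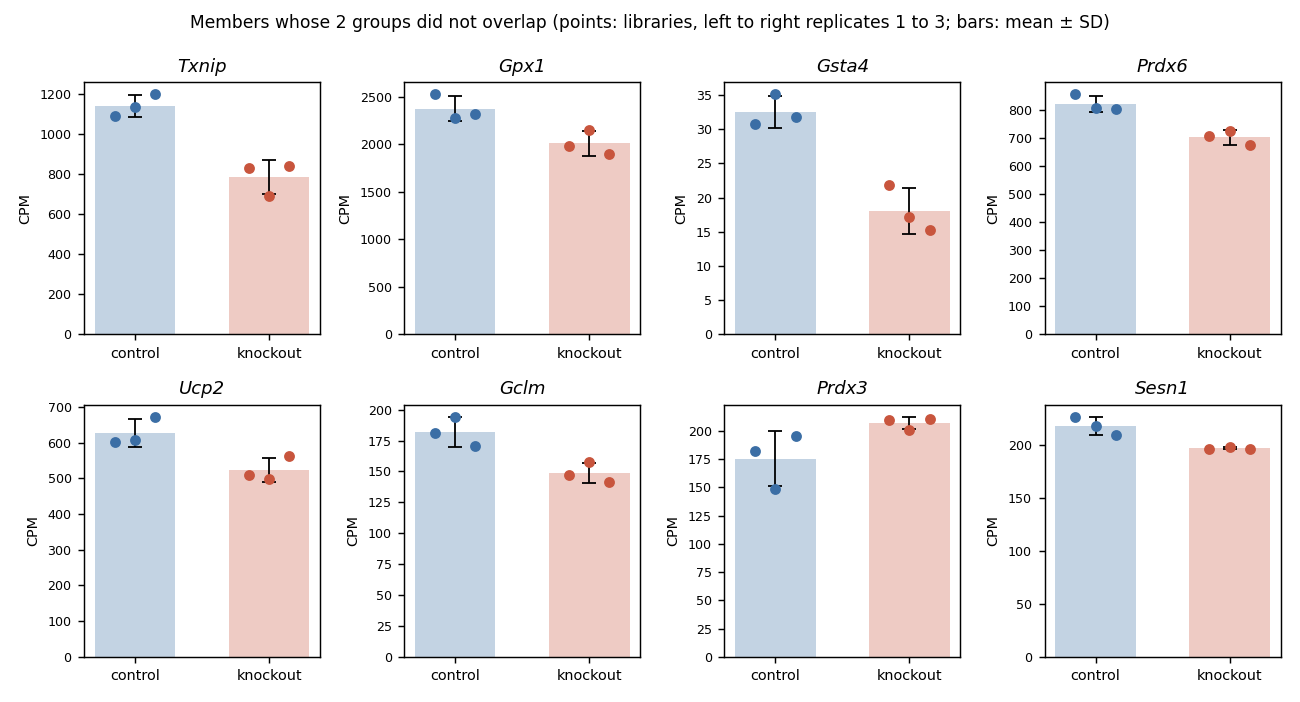
CPM in each library for the 8 genes whose control and knockout libraries did not overlap, as points over the mean ± SD (n = 3 each), with axes starting at 0. Txnip is the 1 called gene, Gsta4 shows the largest relative difference (32.5 against 18.1 CPM), and Prdx3 is the 1 gene with every knockout library higher.

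Among glutathione peroxidases Gpx1 (gene ID 14775, chromosome 9, 108339080 to 108340342) was at 2525, 2274 and 2321 CPM in control and 1980.3, 2149 and 1895 CPM in knockout. All knockout libraries were lower, though knockout replicate 2 came close to control replicate 2. The log2 fold change was -0.24 (SE 0.06, 95% interval -0.37 to -0.12), which did not pass (limma adjusted p = 0.118, and 0.0565 to 0.588 over the alternatives). Gpx4, which repairs lipid peroxides in membranes and guards against ferroptosis, was at 140.4, 151 and 140.1 CPM in control and 158, 178 and 122 CPM in knockout. The knockout libraries lay on both sides of the control ones, and the log2 fold change was 0.07 (SE 0.14). Gpx7, an enzyme of the endoplasmic reticulum, was at 13.1, 10.3 and 14.97 CPM in control and 13.7, 10.04 and 6.55 CPM in knockout, a log2 fold change of -0.39 (SE 0.33). Gpx3, a secreted form, and Gpx8, of the endoplasmic reticulum, were at 1.63 to 7.40 CPM in all libraries.

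None of the 6 peroxiredoxins passed. Prdx6 (gene ID 11758, chromosome 1, 161240112 to 161251210), which also has phospholipase activity, was at 855, 807 and 802 CPM in control and 707, 725 and 673 CPM in knockout. Its groups did not overlap, and the log2 fold change of -0.23 (SE 0.06, 95% interval -0.35 to -0.10) did not pass (limma adjusted p = 0.149). Prdx3 (gene ID 11757, chromosome 19, 60864066 to 60874538), the peroxiredoxin of mitochondria, was at 182, 149 and 196 CPM in control and 209, 201 and 211 CPM in knockout. Here every knockout library was above every control library, with control replicate 2 standing lowest. Its log2 fold change was 0.25 (SE 0.11, adjusted p = 0.485). Prdx4, of the endoplasmic reticulum, was at 128, 145 and 135 CPM in control and 143, 159 and 143 CPM in knockout, with the groups overlapping and a log2 fold change of 0.13 (SE 0.10).

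Prdx1 and Prdx2, the abundant cytosolic forms, and Prdx5 had log2 fold changes of -0.08 to -0.0040 with SE from 0.07 to 0.10. Prdx1 was at 626 to 706 CPM in control and 647 to 709 CPM in knockout. Prdx2, abundant in red cells, was at 384 to 459 CPM in control and 389.7 to 441 CPM in knockout, so the groups overlapped. Summed erythroid markers were at 112 to 117 CPM in control and 139 to 175 CPM in knockout, and their part in the Prdx2 values was not tested. Srxn1, sulfiredoxin, which reactivates overoxidized peroxiredoxins, was at 20.1 to 37.4 CPM in all libraries.

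Of the dismutases and catalase none passed, and none had an unadjusted p under 0.05. Sod2, the mitochondrial enzyme, was at 153, 152 and 152 CPM in control and 140.4, 151 and 153 CPM in knockout, a log2 fold change of -0.04 (SE 0.09, 95% interval -0.24 to 0.16). Cat was at 176, 199 and 210.3 CPM in control and 178, 187 and 214 CPM in knockout, so the groups overlapped, with a log2 fold change of -0.02 (SE 0.11). Sod1, the cytosolic enzyme, was at 84.3, 87.0 and 81.7 CPM in control and 63.3, 91.7 and 77.9 CPM in knockout. Knockout replicate 1 was the low library, and the log2 fold change was -0.14 (SE 0.15).

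Glutaredoxins, which use glutathione to reduce protein disulfides, overlapped between groups in all 4 cases. Glrx2, of mitochondria and nucleus, was at 73.1, 60.5 and 56.6 CPM in control and 63.8, 54.2 and 48.0 CPM in knockout, a log2 fold change of -0.20 (SE 0.16). Glrx3, which takes part in iron handling, was at 185, 189 and 168 CPM in control and 181, 200.1 and 192 CPM in knockout, a log2 fold change of 0.08 (SE 0.09). Glrx, the cytosolic form, was at 106, 109 and 119 CPM in control and 88.6, 112 and 115 CPM in knockout, with only knockout replicate 1 below the controls. Glrx5, which serves iron-sulfur cluster assembly in mitochondria, was the member nearest above the filter, at 1.26, 1.57 and 2.09 CPM in control and 1.08, 2.19 and 1.21 CPM in knockout. A 2-fold difference of Glrx5 in either direction lay within its 95% interval, -1.74 to 1.39 on the log2 scale, and so was not resolved.

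Glutathione is made by glutamate-cysteine ligase, with Gclc as the catalytic and Gclm as the modifier subunit, and then by glutathione synthetase, Gss. Gclm (gene ID 14630, chromosome 3, 122245487 to 122267215) was at 181, 194 and 170.4 CPM in control and 147, 158 and 142 CPM in knockout. The groups did not overlap, and the log2 fold change of -0.29 (SE 0.10, 95% interval -0.50 to -0.08) did not pass (limma adjusted p = 0.308). Gclc was at 82.0, 80.6 and 91.0 CPM in control and 95.1, 80.6 and 102 CPM in knockout, a log2 fold change of 0.13 (SE 0.13). The subunits thus had fitted values of opposite sign, with an interval for Gclc, -0.16 to 0.41, that included 0. Gss was at 43.2, 76.0 and 57.3 CPM in control and 62.8, 46.3 and 48.7 CPM in knockout. Gsr, glutathione reductase, was at 122 to 157 CPM in control and 131 to 143 CPM in knockout.

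Glutathione transferases join glutathione to reactive compounds. Gsta4 (gene ID 14860, chromosome 9, 78191966 to 78209349), which acts on hydroxynonenal from lipid peroxidation, was at 30.7, 35.1 and 31.7 CPM in control and 21.8, 17.1 and 15.3 CPM in knockout. Each knockout library was well below the lowest control library. Means were 32.5 ± 2.28 and 18.1 ± 3.36 CPM (SD over 3 libraries), which gave a log2 fold change of -0.86 (SE 0.20, 95% interval -1.31 to -0.41). The test over all genes did not call it (limma adjusted p = 0.127, and 0.103 to 0.414 over the alternatives).

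Membrane-bound transferases had values above 0. Mgst1, found in membranes of the endoplasmic reticulum and mitochondria, was at 30.5, 40.2 and 24.4 CPM in control and 35.3, 41.0 and 52.3 CPM in knockout, with 0.45 as log2 fold change (SE 0.22, adjusted p = 0.533). Mgst2 was at 4.85, 5.24 and 6.05 CPM in control and 8.28, 7.20 and 5.97 CPM in knockout, overlapping through knockout replicate 3, and Mgst3 had a log2 fold change of 0.11 (SE 0.23). Neutrophil markers were higher in the same libraries, at 1122 to 1332 against 309 to 325 summed CPM, and their part in these values was not tested. Gsto1, an omega-class enzyme, was the transferase of highest level by CPM, at 244, 292 and 282 CPM in control and 235, 280.0 and 282 CPM in knockout. Gstm1, Gstm5 and Gstp1 had log2 fold changes from -0.05 to 0.07. Gstm genes form a cluster of similar copies on chromosome 3, and Gstp1 has a near-identical neighbour, Gstp2, which had 6 to 30 reads per library, so reads of these genes may have been divided between copies.

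The NRF2 axis gave no call. Nfe2l2 was at 179, 183 and 169 CPM in control and 170.4, 160.5 and 182 CPM in knockout, a log2 fold change of -0.05 (SE 0.09, 95% interval -0.25 to 0.15). Keap1 was at 105 to 112 CPM in control and 94.2 to 119.8 CPM in knockout. The transcripts of the factor and of its inhibitor therefore overlapped between groups, which leaves the protein unmeasured. Nqo1, a quinone reductase widely used as a readout of NRF2, was at 30.9, 36.8 and 33.7 CPM in control and 32.7, 17.1 and 24.7 CPM in knockout. Knockout replicate 1 stood among the controls and the other 2 below them, with a log2 fold change of -0.49 (SE 0.24, limma adjusted p = 0.518). Hmox1, inducible heme oxygenase, was at 10.6, 5.70 and 5.92 CPM in control and 10.5, 9.41 and 9.04 CPM in knockout, a log2 fold change of 0.44 (SE 0.34). Hmox1 and Nqo1, both NRF2 targets, thus had fitted values of opposite sign, and both intervals included 0. Hmox2, the constitutive form, was at 107, 108 and 116 CPM in control and 95.5, 111 and 107 CPM in knockout.

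Antioxidant response elements, to which NRF2 binds, were looked for as TGACNNNGC on either strand in the same RefSeq promoter windows. They were in 10 of 57 windows (17.5%), each of a different gene, and in 12.4% of all windows. Shown are those of Gclm and Ucp2, whose groups did not overlap, and of Prdx1 and Txnrd1, whose groups did, each with the motif in capitals and 8 bases on either side, in the direction of the gene (GRCm38.p6).
Gclm, plus strand, chr3:122245415-122245439: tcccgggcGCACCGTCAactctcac
Ucp2, plus strand, chr7:100493284-100493308: ctggctccGCCTCGTCAcgccacgc
Prdx1, plus strand, chr4:116685458-116685482: gggaaagcGCTGAGTCAtcccccgt
Txnrd1, plus strand, chr10:82859106-82859130: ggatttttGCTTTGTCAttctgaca
The other 6 genes with these letters were Gstm5, Mgst1, Nfe2l2, Sesn2, Sod1 and Srxn1. Log2 fold changes of the 10 genes ran from -0.29 (Gclm) to 0.45 (Mgst1), and none was called.

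Sestrins, stress-induced proteins that restrain mTORC1, and Ucp2, a mitochondrial carrier, had fitted values below 0. Ucp2 (gene ID 22228, chromosome 7, 100493337 to 100499629) was at 601, 606 and 673 CPM in control and 509, 499 and 563 CPM in knockout. The groups did not overlap, and the log2 fold change of -0.26 (SE 0.07, 95% interval -0.42 to -0.10) did not pass (limma adjusted p = 0.216). Sesn1 (gene ID 140742, chromosome 10, 41810574 to 41908436), a p53 and FoxO target, was at 227, 218 and 209.9 CPM in control and 196, 198 and 197 CPM in knockout. The knockout libraries were tightly grouped and below all controls, for -0.15 on the log2 scale (SE 0.08, adjusted p = 0.561). Sesn2 was at 19.1 to 23.4 CPM in control and 20.1 to 21.5 CPM in knockout. Sesn3, also a FoxO target, was at 3.14, 7.95 and 6.72 CPM in control and 8.87, 6.94 and 1.99 CPM in knockout, a spread within groups far wider than the difference between them.

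FoxO factors were not called. Foxo1 was at 42.5, 34.3 and 42.3 CPM in control and 34.4, 43.9 and 35.7 CPM in knockout, a log2 fold change of -0.06 (SE 0.17, 95% interval -0.45 to 0.32). Foxo3, the FoxO factor with a known part in stem cell maintenance in mice, was at 14.2, 5.02 and 6.15 CPM in control and 3.27, 4.01 and 5.45 CPM in knockout. Control replicate 1 stood apart from the rest, and the groups overlapped. Its log2 fold change was -0.87 (SE 0.46, limma adjusted p = 0.559) and -0.42 without control replicate 1. Foxo4 was at 2.30, 2.66 and 2.29 CPM in control and 1.06, 3.68 and 3.52 CPM in knockout, with an interval of -1.43 to 1.41 on the log2 scale. Per kilobase of exon Foxo1 was at 4.58 in control, Foxo3 at 1.11 and Foxo4 at 0.694.

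Further genes of these pathways were read from lists made by role, with earlier results of these data known, 141 tested genes in 8 lists. One was called, Klf6, which is 0.709% of them and near the 0.699% of all tested genes. In total 64 had values above 0 and 77 below (54.6% below, against 49.45% of all tested genes). In 36 the groups did not overlap, 25 with knockout lower and 11 with knockout higher, which is 25.5% against 16.5% of all tested genes. At an unadjusted p under 0.05 (limma) there were 17.0% against 10.3%. These shares describe the lists and test nothing. The list of FoxO targets held 27 genes, all tested. Klf6, a zinc-finger factor, fell from 233 ± 35.002 to 145 ± 9.90 CPM, a log2 fold change of -0.68 (SE 0.12, limma adjusted p = 0.0351). Pik3ip1, an inhibitor of PI3 kinase, was at 236 ± 22.4 and 168 ± 6.26 CPM (log2 fold change -0.48, SE 0.09, adjusted p = 0.0592). Klf2, a quiescence factor of lymphocytes, was at 30.3 ± 3.08 and 15.1 ± 1.73 CPM (log2 fold change -1.01, SE 0.20, adjusted p = 0.0621). Of the 27, 24 had values below 0, with a median of -0.18. In 12 every knockout library was below every control library, or 44.4% against 8.01% of all tested genes. Since the list was made with earlier results of these data known, these shares describe it and test nothing. It was not split by whether FoxO factors raise or lower a gene, and the cyclin genes Ccnd1 and Ccnd2 are among the 12. Klf6 and Klf2 are also known to respond to stimulation of cells, as is Junb, an AP-1 factor that fell from 168 ± 14.3 to 98.1 ± 4.52 CPM (adjusted p = 0.00738), and the part of such a response in these values was not tested.

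The Klf6 call was lost without any 1 library other than control replicate 3 (adjusted p = 0.0806 to 0.154), without the low-value filter (0.0503), without the trend (0.263) and with replicate number as a block (0.108), while its log2 fold change stayed between -0.80 and -0.58 over all alternatives. Among 17 FoxO kinases, phosphatases and related regulators none was called, with a median of -0.07. Prkaa1, a catalytic subunit of AMP-activated kinase, was at 90.4 ± 20.1 and 62.1 ± 8.22 CPM, with every knockout library below every control library (adjusted p = 0.308).

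NADPH supply genes had 16 tested members, 0 called and a median of 0.10. Aldh1l1, a folate enzyme that yields NADPH, was at 28.5 ± 3.47 CPM in control and 48.6 ± 8.11 CPM in knockout (log2 fold change 0.76, SE 0.18, adjusted p = 0.134). Pgd, of the pentose phosphate pathway, was at 85.6 ± 10.9 and 115 ± 8.81 CPM (0.43, SE 0.13, adjusted p = 0.264). In both genes all knockout libraries were higher. NADPH oxidase, the phagocyte enzyme that makes superoxide, had 0 of 9 tested genes called and a median of 0.09. Ncf1, its cytosolic subunit, was at 12.2, 10.99 and 11.2 CPM in control and 21.9, 25.9 and 20.0 CPM in knockout (log2 fold change 0.97, SE 0.22, adjusted p = 0.107). Cybb, its catalytic subunit, had 319, 0 and 66 reads in control and 454, 1088 and 942 in knockout (adjusted p = 0.357). The neutrophil and the monocyte and macrophage markers were higher in the same libraries, the latter at 30.4 to 54.4 summed CPM in control and 86.8 to 101.6 CPM in knockout with 0 of 9 tested genes called, and their part in these values was not tested.

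Other glutathione genes, 20 tested and 0 called, had a median of -0.10. Slc3a2, the heavy chain of the cystine transporter, was at 239.6 ± 8.97 and 196 ± 5.65 CPM (log2 fold change -0.29, SE 0.08, adjusted p = 0.208), and Gstt1 at 38.7 ± 4.80 and 29.8 ± 1.399 CPM (-0.37, SE 0.17, adjusted p = 0.485). Of 23 tested NRF2 partners and further targets none was called, and 13 had values above 0 and 10 below, with a median of 0.03. Fth1, ferritin heavy chain, was at 1795 ± 57.2 and 1591 ± 42.5 CPM (-0.17, SE 0.04, adjusted p = 0.152), and Slc48a1, a heme transporter, at 398 ± 27.5 and 337 ± 5.90 CPM (-0.24, SE 0.07, adjusted p = 0.283). All knockout libraries were below all control libraries for each of these 4 genes. Blvrb, biliverdin reductase B, and Nfe2l1, a factor related to NRF2, had every knockout library above every control library, with log2 fold changes of 0.33 (SE 0.15, adjusted p = 0.487) and 0.23 (SE 0.12, adjusted p = 0.559).

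Metallothioneins bind zinc and copper and take up oxidants, and in a list of 10 with iron genes none was called, with 7 values above 0, 3 below and a median of 0.22. The metallothioneins were the genes of smallest p. Mt2 was at 6.41, 5.34 and 4.93 CPM in control and 0.730, 1.82 and 0.984 CPM in knockout, a log2 fold change of -2.32 (SE 0.57, limma adjusted p = 0.149). Mt1 was at 30.0, 39.2 and 37.4 CPM in control and 19.6, 25.1 and 21.2 CPM in knockout, which is -0.69 on the log2 scale (SE 0.19, adjusted p = 0.219). Both had every knockout library below every control library, while Ireb2, an iron regulatory protein, had every knockout library above, at 47.9 ± 7.498 and 67.99 ± 6.27 CPM (0.51, SE 0.16, adjusted p = 0.281). Selenoproteins and their synthesis factors had 0 of 19 called and a median of 0.01. Msrb3, a methionine sulfoxide reductase, was at 3.32 ± 1.42 and 9.51 ± 1.13 CPM (1.62, SE 0.44, adjusted p = 0.207), and Selenoi, a phospholipid synthesis enzyme, at 26.8 ± 2.93 and 36.3 ± 2.98 CPM (0.44, SE 0.17, adjusted p = 0.41).

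**Figure D5:**
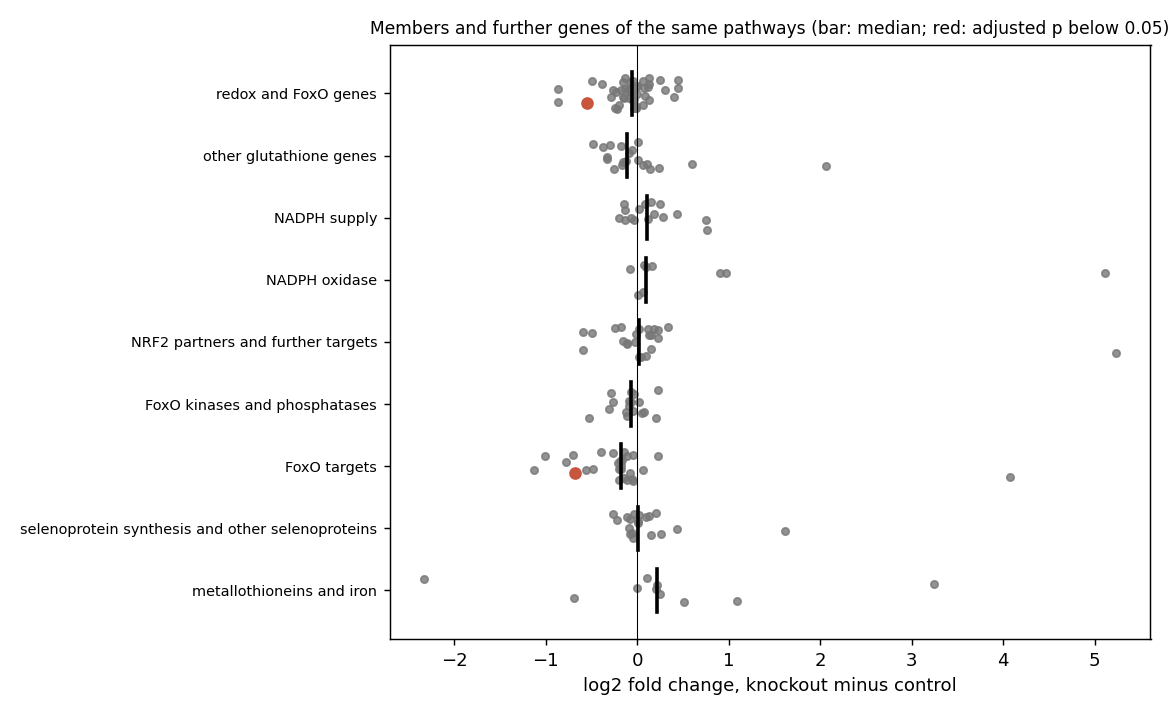
Fitted log2 fold change, knockout minus control, of the 49 genes (top row) and of 8 further lists of the same pathways, with a black bar at each median and called genes in red. Called genes are Txnip at -0.54 and Klf6 at -0.68. The FoxO target list, not split by whether FoxO factors raise or lower a gene, has 24 of 27 values below 0. The 5 points above 2 are Il7r, Cybb, Pir, Cp and Oplah, each with at least 1 control library at 0 reads, so their fitted values depend on the offset.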

How the data were processed

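RNA-seq of sorted LT-HSC gave 6 libraries, 3 per genotype. HISAT2, featureCounts, limma, FastQC and build mm10 are named, per the submitters' processing notes. How strand and multiply mapped reads were treated, and the versions, are not stated in these sources. The authors deposited 1 table of log2 values per NCBI gene ID, whose values have the form of log2 CPM (an offset of 0.5 reads). Undoing that form gave whole reads for 100.0% of values (tolerance 0.01), and the CPM printed are those reads over the effective library size. RefSeq (GRCm38.p6) named 25275 IDs, and 1904 were unmatched. Exon lengths came from GENCODE M21 (GRCm38).

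As deposited, these log2 values entered limma 3.58.1 (R 4.3.3, lmFit, eBayes with a mean-variance trend, no block), and p-values were adjusted by Benjamini-Hochberg over 13018 genes with a log2 value of at least 0 in at least 3 libraries. Fold changes are on that log2 scale. The members and lists were chosen with earlier results of these data known. Values per library are given for called members, the 3 smallest p-values and the highest level in each role group, the FoxO factors and the member nearest the filter, and of other lists for called genes and 2 more by smallest p. One gene that this rule names is not reported here. Other members are given by range. Junb, Gm15441, Gstp2, Ireb2, Blvrb and Nfe2l1 were named after values were seen.

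Every pair of libraries differed by more than sampling noise (chi-square per degree of freedom of at least 42.4). In simulated reads with 200 of 13018 genes changed, 0 unchanged genes were called. Alternatives were no filter or 5 CPM, quantile normalization or median centring, eBayes without trend or robust, log2(CPM + 1) or log2(CPM + 5), voom on recovered reads, replicate number as a block, and each library left out in turn, the last also with the genes of all 6 kept, which was chosen after seeing the data. Figures used matplotlib 3.10.9 in Python 3.11.15.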

Additional observations from a re-analysis of the deposited data

How the results depend on the processing

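Among the 49 genes the count called higher was 0 in every alternative (1 at an unadjusted p under 0.05, Prdx3), and the count called lower was 1, Txnip, except 0 without the trend and 0 without control replicate 3, the range on leaving out a library being 0 to 1. Over all genes 53 were called higher and 38 lower. The higher count was 83 without the filter, 105 with log2(CPM + 1), 104 with log2(CPM + 5) and 20 to 66 on leaving out a library, the values of 20 to 28 being those without a knockout library. The lower count was 15 without the trend, 59 and 64 with these offsets and 19 to 31 on leaving out a library. With replicate number as a block the lower count was 23, and Txnip kept its call (adjusted p = 0.0242). Same-numbered libraries did not deviate together (correlations of -0.02 to 0.02), so the numbers were not treated as pairs.

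In the further pathway lists 1 gene was called lower, Klf6. That count was 0 without the filter, without the trend and with the replicate block, and 0 to 1 on leaving out a library. It was 2 with the filter of 5 CPM, quantile normalization, robust eBayes, log2(CPM + 1) and voom, and 3 with log2(CPM + 5), where 1 gene, Cybb, was called higher. The genes added were Pik3ip1, Klf2 after quantile normalization and Mt2 with the largest offset.

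Some members changed sign, none of them called. Gpx8 was -0.0048 after median centring and -0.080 after quantile normalization, which also put Prdx1 at 0.027. Foxo4 was 0.043, 0.045 and 0.065 with log2(CPM + 1), log2(CPM + 5) and voom, and Gstm5 0.0027 with voom. On leaving out a library the log2 fold changes ran from -0.093 to 0.040 for Cat, -0.26 to 0.0031 for Sod1, -0.34 to 0.75 for Gpx3 and -0.049 to 0.22 for Gpx4. They ran from -0.29 to 0.34 for Gpx8, -0.052 to 0.035 for Prdx1, -0.074 to 0.028 for Prdx5 and -0.39 to 0.055 for Srxn1. The range was -0.13 to 0.20 for Txnrd1, -0.16 to 0.11 for Txnrd3, -0.16 to 0.030 for Glrx and -0.48 to 0.020 for Glrx5. It was -0.34 to 0.067 for Gss, -0.18 to 0.0037 for Gsr, -0.14 to 0.13 for Gstm5 and -0.12 to 0.050 for Gsto1. Further ranges were -0.13 to 0.042 for Keap1, -0.12 to 0.027 for Sesn2, -0.57 to 0.51 for Sesn3, -0.17 to 0.0027 for Foxo1 and -0.32 to 0.58 for Foxo4. The cause was not tested. Glrx5, Foxo3, Foxo4, Sesn3, Gpx3, Gpx8, Mgst2 and Hmox1 averaged under 10 CPM in control, and the part of read depth in their spread was not tested. The 3 libraries per genotype are technical portions of 1 sort, which limits all genes.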
